A study of Avena sativa with 6 samples.

Results

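The cellulose synthase superfamily was examined in RNA of peeled seeds of the high-oil oat (Avena sativa) cultivar BY9, from ears that were shaded or left in the light. The members are all genes whose deposited KEGG or COG description contains the words cellulose synthase, which gave 45 of 136488 genes. Of these, 30 carry the KEGG entry for the catalytic subunit of cellulose synthase (CESA), 12 the entry for cellulose synthase-like D (CSLD), and 3 have COG text only. There were 3 ear-shaded libraries, from ears shaded for 4 days after flowering, and 3 unshaded libraries, all from this 1 cultivar. The labels name no other condition, and whether the libraries stand for separate plants is not stated, so the p-values cover the spread among libraries, which may be technical. Expression was deposited as FPKM, a read abundance corrected for gene length and library size, so levels of different genes are compared per length.

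CESA proteins sit in the plasma membrane in large complexes and join glucose from UDP-glucose into the cellulose chains of the wall. In Arabidopsis and rice, separate CESA proteins serve the thin primary wall of growing cells and the thick secondary wall of fibres and vessels. CSLD proteins are related membrane enzymes known in those species for walls of root hairs, pollen tubes and dividing cells. A further branch, CSLF, makes the mixed-linkage beta-glucan that is typical of grass walls and that oat grain is valued for. The 15 genes with the CSLF entry, which KEGG describes as mixed-linked glucan synthase, do not carry the words cellulose synthase. They are therefore not among the 45 members, and are described after them as relatives.

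Total FPKM per library ran from 493004 to 510815 in ear-shaded grains and from 530911 to 561772 in unshaded grains, and the number of reads behind them is unknown. Over genes, ear-shaded replicates 1 and 2 correlated at r = 0.989, above the other pairs within a group (0.949 to 0.965). Storage protein genes, markers of starchy endosperm, summed to 5848 to 9254 FPKM in ear-shaded and 19032 to 38868 FPKM in unshaded libraries, with 72 of 90 tested genes lower. Of 130 such genes, 4 were listed at 0 in all ear-shaded and 8 in all unshaded libraries. Light-harvesting antenna genes, markers of green tissue, summed to 589 to 735 FPKM in ear-shaded and 18.0 to 26.0 FPKM in unshaded libraries, with 42 of 43 tested genes higher. The limit for testing was a mean of 1 FPKM over all 6 libraries. The 2 antenna genes of the highest mean averaged 0.606 and 0.383 FPKM in unshaded libraries, so they passed it only through the ear-shaded ones. Of 98 antenna genes, 3 were listed at 0 in all ear-shaded and 29 in all unshaded libraries. Oleosin genes, markers of embryo and aleurone oil, summed to 7.05 to 7.61 FPKM in ear-shaded and 18.2 to 32.0 FPKM in unshaded libraries, with 5 of 5 tested genes lower. The oleosin gene of the highest mean averaged 0.573 FPKM in ear-shaded libraries, so it passed the limit only through the unshaded ones. Core histone genes, markers of dividing cells, overlapped between the groups, with sums of 11586 to 17657 FPKM in ear-shaded and 8896 to 12007 FPKM in unshaded libraries. Of 304 tested histone genes 89 were higher (29.3%) and 28 lower (9.21%), where 42.4% of all tested genes were higher and 21.5% lower. With median-of-ratios scaling 34 histone genes were higher and 62 lower, where 28.0% of all tested genes were higher and 31.1% lower. The shares of 42.4% and 21.5% also stand beside the other marker counts. The storage protein, antenna and oleosin sums thus differed between the groups without overlap, while the histone sums overlapped. The results given next come from the same libraries, and the part of these markers in them was not tested.

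Most cellulose synthase genes that could be tested had more RNA in ear-shaded than in unshaded grains. Of the 25 members that averaged 1 FPKM or more across all 6 libraries, 22 rose, 0 fell and 3 did not pass (limma on log2(FPKM + 1), two-sided, Benjamini-Hochberg adjusted p under 0.05 over 58283 tested genes). Among all tested genes, 42.4% were higher and 21.5% lower by the same rule, together 63.9%. At an unadjusted p under 0.05, limma placed 23 of the 25 higher and 0 lower. The median log2 fold change of the 25 was 0.97, against 0.26 over all tested genes, and 23 of the 25 lay above that median. Of the 22 genes that rose, 12 had a log2 fold change of at least 1. The other 20 members fell below the limit of 1 FPKM and were not tested, while all 25 tested members averaged at least 1 FPKM in unshaded libraries alone. The members nearest to the limit were AVESA.00010b.r2.5DG0960020 at a mean of 1.47 FPKM and AVESA.00010b.r2.1AG0068580 at 0.678 FPKM. In RNA of peeled grains, a change in the number of cells of a type and a change in RNA per cell cannot be told apart.

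Summed over the 30 CESA genes, expression was 442, 427 and 303 FPKM in the ear-shaded libraries, against 154, 143 and 224 FPKM in the unshaded libraries. The ranges did not overlap, and the mean was 391 ± 76.3 FPKM in ear-shaded and 174 ± 44.0 FPKM in unshaded grains (SD, n = 3 each), a ratio of 2.25. The 12 CSLD genes summed to 49.2, 48.0 and 42.2 FPKM in ear-shaded libraries, against 29.6, 25.9 and 32.5 FPKM in unshaded libraries, a ratio of 1.58. CESA genes thus made up most of the superfamily's expression in both groups. With median-of-ratios scaling, which moves the median of all genes by over 0.1 to -0.02, the ratio was 1.72 for CESA and 1.21 for CSLD. With that scaling 15 of the 25 members rose and 0 fell, and their median log2 fold change was 0.62, against a background of 28.0% higher and 31.1% lower.

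**Figure D1:**
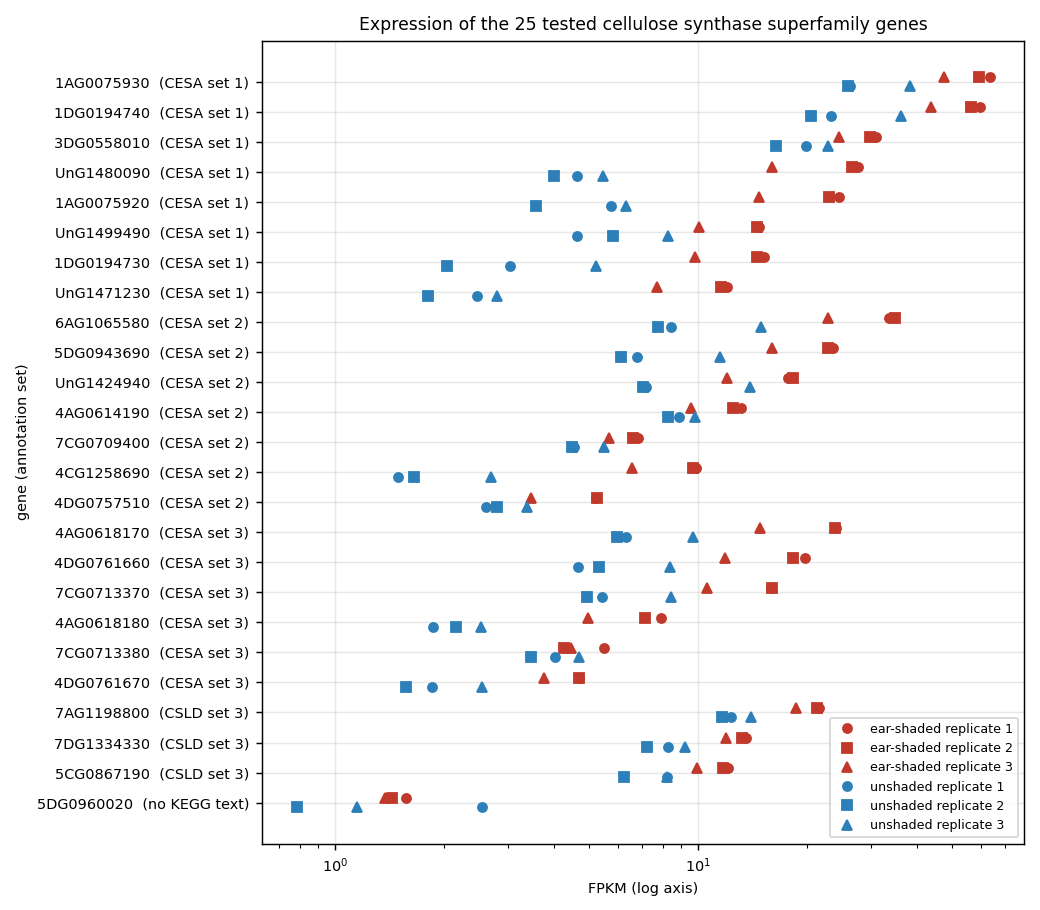
FPKM of the 25 tested members in each library on a log axis, with ear-shaded libraries in red and unshaded libraries in blue, 1 marker shape per replicate number, and gene IDs without their common prefix AVESA.00010b.r2. In 21 of the 25 genes the 3 ear-shaded libraries lie wholly above the 3 unshaded ones.

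The 3 ear-shaded libraries lay wholly above the 3 unshaded ones in 21 of the 25 tested members, where 46.2% of all tested genes were so separated. The same held in 13 of the 20 members that were too low to test, where 27.4% of all untested genes were so separated. In all 22 genes that rose, ear-shaded replicate 3 was the lowest of its group and unshaded replicate 3 the highest of its group. Over all genes that rose, these shares were 68.9% and 64.2%. Without both replicates numbered 3, an alternative chosen after seeing the data, 23 members rose and 0 fell. Of all 58283 tested genes, 27134 then rose and 12993 fell. In the authors' deposited table, 27 of the 44 members with an adjusted p were higher and 0 lower at an adjusted p under 0.05, where 20.7% and 20.2% of all genes with one were. The authors' deposited table marks 20 members as up, which also needs a larger change, and 0 as down, where it marks 13.4% of all genes up and 12.9% down. Of the 25 members tested here, 9 had an adjusted p of 0.05 or more in the authors' deposited table.

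The CESA genes fell into 6 sets by the GO terms that the deposited file attaches to them, and genes of a set carry the same number of terms. The grouping is by annotation, not by sequence, since no sequence was used here. Sets 1 and 3 carry the GO term for primary wall formation without the one for the secondary wall, and sets 2, 4, 5 and 6 carry both. Sets 1 to 3 held all 21 tested CESA genes, and sets 4 to 6 held the 9 that were too low to test. The letter after the chromosome number in an ID names the A, C or D subgenome of this hexaploid species, and Un stands for no chromosome. Reads of near-identical copies may be divided among them by the authors' counting, so values of single genes are less certain than those of sets.

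Set 1 was the most abundant, with 8 genes that summed to 219 ± 39.7 FPKM in ear-shaded and 98.5 ± 24.0 FPKM in unshaded grains (SD, n = 3 each). All 8 rose. It held 50.0% of the FPKM of the 45 members in ear-shaded libraries and 48.0% in unshaded libraries. Of its genes, 7 are shorter than 3000 bases, from 552 bases upward, whereas all genes of sets 3 to 6 are longer than 3000 bases. Such short gene models may be parts of genes, which was not tested.

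The CESA gene with the highest mean FPKM was AVESA.00010b.r2.1AG0075930, which had 63.6, 59.4 and 47.5 FPKM in ear-shaded libraries, against 26.3, 25.9 and 38.4 FPKM in unshaded libraries. It rose by 0.90 ± 0.20 on the log2 scale (SE; Benjamini-Hochberg adjusted p = 0.0048 in limma). AVESA.00010b.r2.1DG0194740 on the D subgenome came next, with 59.8, 56.4 and 43.8 FPKM in ear-shaded libraries, against 23.2, 20.4 and 36.1 FPKM in unshaded libraries. The groups did not overlap in either gene, although unshaded replicate 3 came within 10 FPKM of ear-shaded replicate 3. The log2 fold change of the second was 1.01 ± 0.23 (SE; limma adjusted p = 0.0059). The third by level, AVESA.00010b.r2.3DG0558010, is the only gene of set 1 with a model longer than 3000 bases. It had 30.9, 29.8 and 24.5 FPKM in ear-shaded libraries, against 19.8, 16.4 and 22.8 FPKM in unshaded libraries. It had the smallest log2 fold change of the set, 0.51 ± 0.16 (SE; adjusted p = 0.0238 in limma). That call ended without ear-shaded replicate 1 (limma adjusted p = 0.0909), ear-shaded replicate 2 (0.0835), unshaded replicate 1 (0.0567) or unshaded replicate 2 (0.0746), and with median-of-ratios scaling (0.449).

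The largest increase among the members was in AVESA.00010b.r2.UnG1480090, also of set 1. It had 27.6, 26.6 and 16.0 FPKM in ear-shaded libraries, against 4.63, 4.02 and 5.47 FPKM in unshaded libraries. The lowest ear-shaded library thus stood clear of the highest unshaded one, and the log2 fold change was 2.07 ± 0.21 (SE; limma adjusted p = 0.000144). AVESA.00010b.r2.1AG0075920, the neighbour by ID of the most abundant CESA gene, had 24.5, 23.0 and 14.7 FPKM in ear-shaded libraries, against 5.77, 3.58 and 6.35 FPKM in unshaded libraries. Its log2 fold change was 1.80 ± 0.24 (SE; limma adjusted p = 0.000444). AVESA.00010b.r2.UnG1471230 had 12.0, 11.6 and 7.71 FPKM in ear-shaded libraries, against 2.45, 1.81 and 2.80 FPKM in unshaded libraries, a log2 fold change of 1.76 ± 0.19 (SE). AVESA.00010b.r2.1DG0194730, the neighbour by ID of the second most abundant gene, had 15.1, 14.6 and 9.81 FPKM in ear-shaded libraries, against 3.03, 2.03 and 5.25 FPKM in unshaded libraries. The log2 fold change was 1.72 ± 0.27 (SE; limma adjusted p = 0.00104), and its groups did not overlap either. The remaining gene of the set, AVESA.00010b.r2.UnG1499490, rose by a log2 fold change of 0.97.

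**Figure D2:**
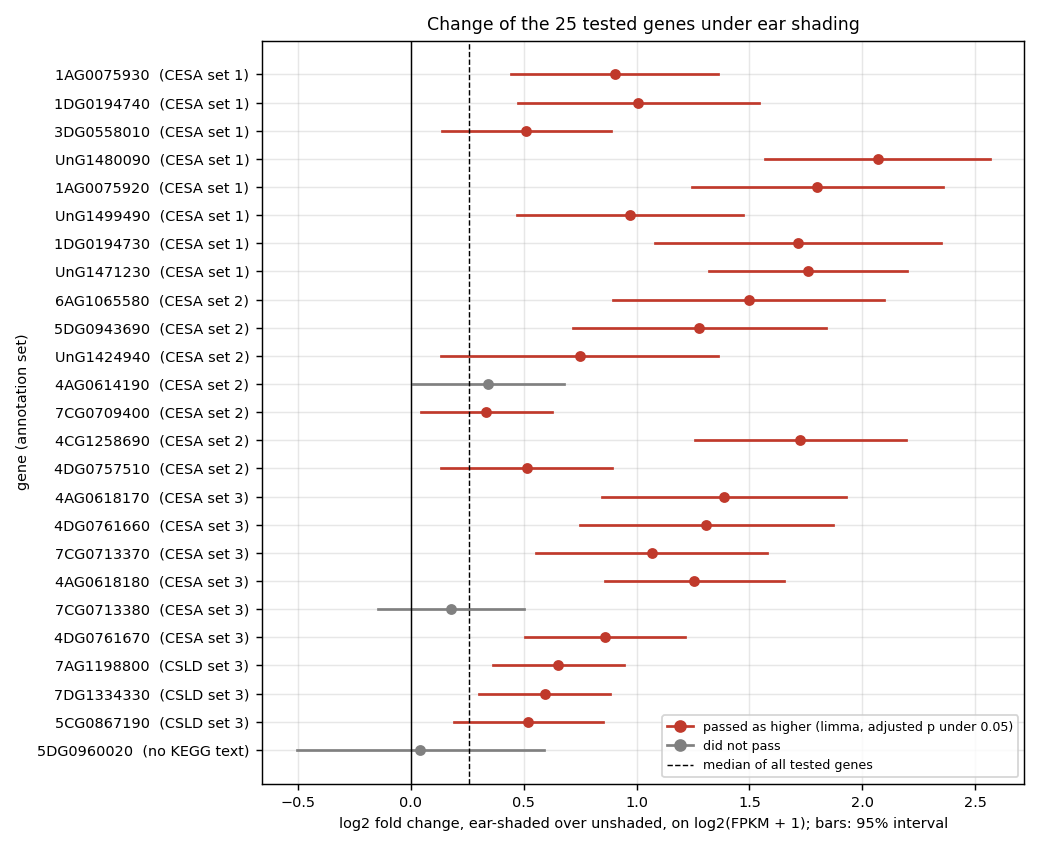
Log2 fold change of the 25 tested members, ear-shaded over unshaded, on the log2(FPKM + 1) scale, with 95% intervals from limma and gene IDs without their common prefix. Red genes passed as higher, grey genes did not pass, and the dashed line is the median of all tested genes at 0.26.

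Set 2 had 7 genes, which carry both wall terms and a term for defense, and summed to 98.6 ± 19.5 FPKM in ear-shaded and 46.6 ± 13.1 FPKM in unshaded grains (SD, n = 3 each). Of these 6 rose and 1 did not pass, but the sizes differed. AVESA.00010b.r2.4CG1258690 had 9.84, 9.71 and 6.59 FPKM in ear-shaded libraries, against 1.49, 1.65 and 2.70 FPKM in unshaded libraries. Its log2 fold change was 1.73 ± 0.20 (SE; limma adjusted p = 0.000242). The genes of the set from here on were named after their values were seen. AVESA.00010b.r2.6AG1065580, the most abundant of the set, had 33.7, 34.8 and 22.8 FPKM in ear-shaded libraries, against 8.44, 7.75 and 14.9 FPKM in unshaded libraries, a log2 fold change of 1.50. AVESA.00010b.r2.5DG0943690 rose by a log2 fold change of 1.28. In these 3 genes all ear-shaded libraries lay above all unshaded ones.

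The other genes of set 2 differed by less between the groups. AVESA.00010b.r2.4AG0614190 had 13.1, 12.5 and 9.57 FPKM in ear-shaded libraries, against 8.84, 8.25 and 9.80 FPKM in unshaded libraries. Its groups overlapped and it did not pass (log2 fold change 0.34, limma adjusted p = 0.0684), although it did without ear-shaded replicate 3 (0.0138). AVESA.00010b.r2.7CG0709400 rose by a log2 fold change of 0.33 (limma adjusted p = 0.0452), AVESA.00010b.r2.4DG0757510 by 0.51 (0.0248) and AVESA.00010b.r2.UnG1424940, whose groups overlapped, by 0.75 (0.0375). These 3 calls ended when either ear-shaded replicate 1 or 2, or unshaded replicate 1 or 2, was left out (limma adjusted p from 0.0596 to 0.154). They ended with median-of-ratios scaling and with quantile normalization too, under each of which 3 of the 7 genes rose.

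Set 3 had 6 genes in neighbouring pairs by ID on 4A, 4D and 7C, which summed to 67.4 ± 14.8 FPKM in ear-shaded and 28.0 ± 7.17 FPKM in unshaded grains (SD, n = 3 each). Of these 5 rose and 1 did not pass. The genes named here were chosen after their values were seen. AVESA.00010b.r2.4AG0618170 had 24.0, 23.8 and 14.8 FPKM in ear-shaded libraries, against 6.35, 5.97 and 9.66 FPKM in unshaded libraries, a log2 fold change of 1.39. Its D counterpart by chromosome number, AVESA.00010b.r2.4DG0761660, had 19.7, 18.2 and 11.9 FPKM in ear-shaded libraries, against 4.67, 5.32 and 8.37 FPKM in unshaded libraries. On both chromosomes the first gene of the pair was the more abundant, and both genes of each pair rose. On 7C the first gene, AVESA.00010b.r2.7CG0713370, rose by a log2 fold change of 1.07 (limma adjusted p = 0.0037). Its neighbour AVESA.00010b.r2.7CG0713380 had 5.50, 4.27 and 4.46 FPKM in ear-shaded libraries, against 4.04, 3.48 and 4.70 FPKM in unshaded libraries. The groups overlapped, and the gene did not pass (log2 fold change 0.18, 95% interval -0.14 to 0.50, limma adjusted p = 0.288). Its sign turned with median-of-ratios scaling (-0.14) and quantile normalization (-0.05).

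The 5 neighbouring pairs allowed a comparison within each library, which no factor that scales a library changes. The ratio of AVESA.00010b.r2.1AG0075930 to AVESA.00010b.r2.1AG0075920 was 2.80 ± 0.364 in ear-shaded and 5.95 ± 1.35 in unshaded libraries (SD, n = 3 each). The ratio of AVESA.00010b.r2.1DG0194740 to AVESA.00010b.r2.1DG0194730 was 4.10 ± 0.323 in ear-shaded and 8.19 ± 1.65 in unshaded libraries. The gene models of the pairs on 1A and 1D are 1302 to 2036 bases long, and whether such neighbours are parts of the same gene was not tested. On 7C the ratio of AVESA.00010b.r2.7CG0713380 to its neighbour was 0.345 ± 0.0769 in ear-shaded and 0.667 ± 0.0976 in unshaded libraries. In these 3 pairs the ratios of the groups did not overlap. The exact two-sided permutation test gave p = 0.1 for each, the smallest that 3 against 3 libraries allow, and 0.167 adjusted over the 5 pairs. In the pairs on 4A and 4D the ratios overlapped between the groups, at 0.322 ± 0.0189 in ear-shaded and 0.305 ± 0.0505 in unshaded libraries on 4A (exact p = 0.6, and 0.6 adjusted over the 5 pairs). On 4D the ratio was 0.271 ± 0.0404 in ear-shaded and 0.331 ± 0.0570 in unshaded libraries (exact p = 0.3, and 0.375 adjusted).

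**Figure D3:**
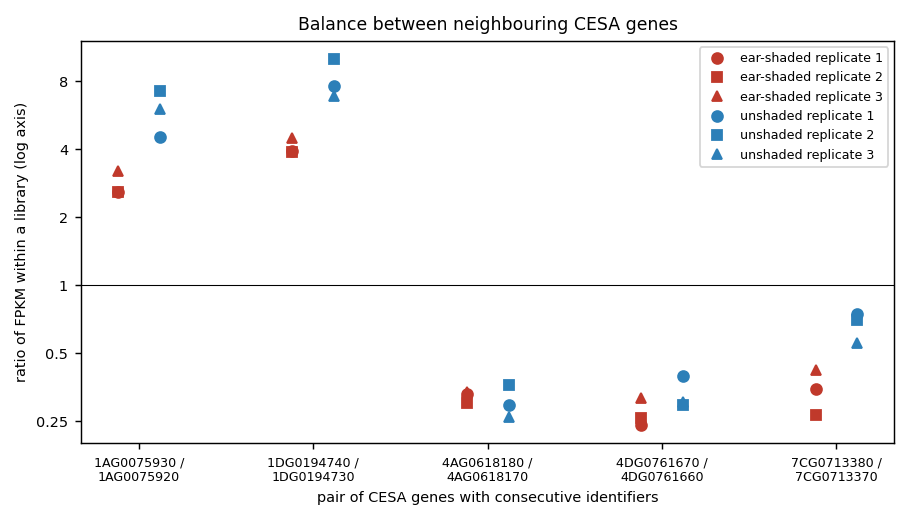
Ratio of the FPKM of the 2 genes of each neighbouring CESA pair within each library, on a log axis, with ear-shaded libraries in red left of unshaded libraries in blue and gene IDs without their common prefix. The groups are separated in the pairs on 1A, 1D and 7C and overlap in those on 4A and 4D.

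The CESA genes of sets 4, 5 and 6 were expressed at far lower levels. Each set is a trio with 1 copy on the A, C and D subgenome, of chromosome 1, 3 and 5 in turn, and each gene carries the secondary wall term. Set 5 also carries the term for defense, as set 2 does, and set 6 the term for the cellulose synthase complex. The 9 genes were named after their values were seen, and all had a mean below 1 FPKM. Set 4 summed to 3.61, 3.96 and 1.09 FPKM in ear-shaded libraries, against 0.210, 0.595 and 0.605 FPKM in unshaded libraries. Set 5 summed to 1.54, 1.80 and 0.649 FPKM in ear-shaded libraries, against 0.136, 0.530 and 0.246 FPKM in unshaded libraries. Set 6 summed to 1.45, 0.838 and 0.614 FPKM in ear-shaded libraries, against 0.0482, 0.247 and 0.0205 FPKM in unshaded libraries. In each set the ear-shaded libraries lay above the unshaded ones, and ear-shaded replicate 3 was the lowest of its group.

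The most abundant gene of the 9 was AVESA.00010b.r2.1AG0068580 of set 4, with 1.53, 1.59 and 0.357 FPKM in ear-shaded libraries, against 0.0993, 0.268 and 0.232 FPKM in unshaded libraries. Its D copy AVESA.00010b.r2.1DG0187620 had 1.15, 1.51 and 0.336 FPKM in ear-shaded libraries, against 0.0666, 0.187 and 0.258 FPKM in unshaded libraries. The groups of both genes did not overlap, although ear-shaded replicate 3 lay close to the unshaded libraries. Lowering the limit to a mean of 0.1 FPKM brings all 9 into the fit, but 6 of them average below 0.1 FPKM in unshaded libraries and so pass it only through the ear-shaded ones, and their calls are not used. Of the other 3, the A and D copies of set 4 passed as higher (limma adjusted p = 0.0233 and 0.0227), where 37.6% of the 103150 genes then tested were higher and 17.3% lower. AVESA.00010b.r2.3AG0448520 of set 5, whose groups overlapped, did not pass (limma adjusted p = 0.0670). The ratio of summed means was 6.15 for set 4, 4.38 for set 5 and 9.19 for set 6. Without unshaded replicate 2 it was 6.97 for set 5 and 28.2 for set 6, so that these ratios rest on the level of 1 library. Low FPKM without read counts carry no interval for counting error, and single values near 0.1 FPKM may stand for few reads.

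**Figure D4:**
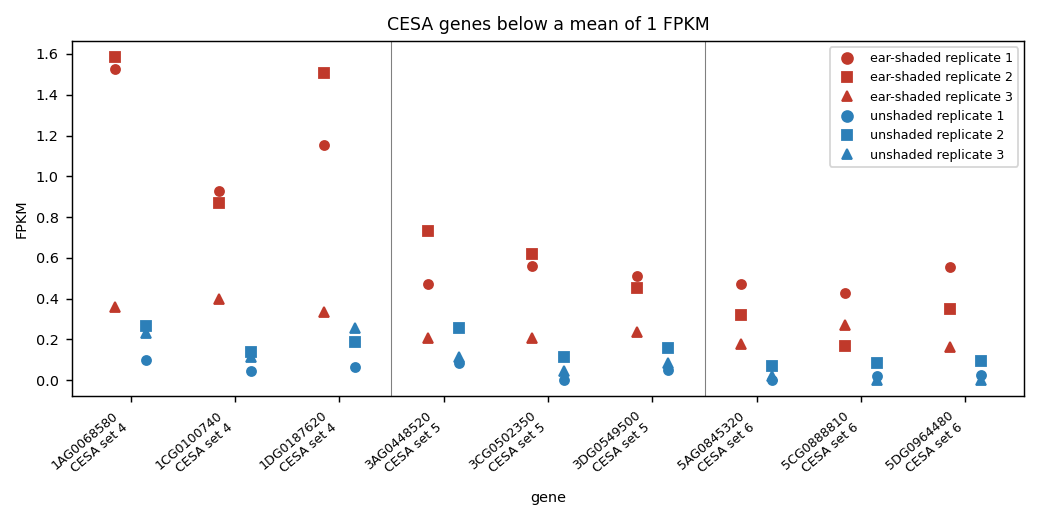
FPKM of the 9 CESA genes with a mean below 1 FPKM in each library, with ear-shaded libraries in red left of unshaded libraries in blue, for the trios of sets 4, 5 and 6 and with gene IDs without their common prefix. Ear-shaded values reach 1.59 FPKM in set 4 and unshaded values stay below 0.27 FPKM.

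The CSLD genes divided into 3 sets, of which 1 was abundant. The 3 genes of CSLD set 3, on 7A, 7D and 5C, all rose, with log2 fold changes below the CESA median of 1.07. AVESA.00010b.r2.7AG1198800 had 21.5, 21.3 and 18.6 FPKM in ear-shaded libraries, against 12.3, 11.7 and 14.0 FPKM in unshaded libraries. AVESA.00010b.r2.7DG1334330 had 13.6, 13.2 and 11.9 FPKM in ear-shaded libraries, against 8.28, 7.24 and 9.18 FPKM in unshaded libraries. AVESA.00010b.r2.5CG0867190 had 12.1, 11.7 and 9.95 FPKM in ear-shaded libraries, against 8.19, 6.23 and 8.24 FPKM in unshaded libraries. In each gene the groups were separated. Their log2 fold changes were 0.65 ± 0.13, 0.59 ± 0.13 and 0.52 ± 0.14 (SE) in that order, with limma adjusted p of 0.0026, 0.0040 and 0.0132. With median-of-ratios scaling none of the 3 passed in limma (adjusted p from 0.0679 to 0.312), though all kept a positive sign. The call for AVESA.00010b.r2.5CG0867190 ended without ear-shaded replicate 1 (adjusted p = 0.0568) or 2 (0.0528). In the authors' deposited table the first of them had an adjusted p of 0.0446 and the others 0.123 and 0.402.

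As a share of the superfamily's FPKM, CSLD set 3 held 10.3% of ear-shaded libraries (9.54% to 11.7%) and 14.1% of unshaded libraries (12.2% to 15.4%). These shares of the 45 members, which leave out CSLF and CSLA genes, did not overlap. CSLD set 3 was thus a smaller part of the members' RNA in shaded ears while its level was higher. The other 9 CSLD genes were too low to test. CSLD set 1, whose 6 genes carry a GO term for pollen germination, summed to 0.602 ± 0.0688 FPKM in ear-shaded and 0.124 ± 0.0323 FPKM in unshaded grains (SD, n = 3 each). Most of this was 1 gene, AVESA.00010b.r2.2CG0317020, with 0.402, 0.449 and 0.249 FPKM in ear-shaded libraries, against 0.0107, 0.0332 and 0.0222 FPKM in unshaded libraries. Of the set, 2 genes were listed at 0 in all unshaded libraries. CSLD set 2, a trio on 1A, 1C and 1D of equal model length, was led by AVESA.00010b.r2.1AG0055740. That gene had 0.904, 0.930 and 0.720 FPKM in ear-shaded libraries, against 0.387, 0.356 and 0.555 FPKM in unshaded libraries, with no overlap. Its C copy AVESA.00010b.r2.1CG0081380 had 0.432, 0.233 and 0.409 FPKM in ear-shaded libraries, against 0.364, 0.278 and 0.436 FPKM in unshaded libraries, where the groups overlapped. These genes of sets 1 and 2 were named after their values were seen.

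The 3 members with COG text only carry the primary wall term and have models of 1998 to 2449 bases. AVESA.00010b.r2.5DG0960020 had 1.57, 1.43 and 1.37 FPKM in ear-shaded libraries, against 2.54, 0.784 and 1.15 FPKM in unshaded libraries. Its unshaded libraries spanned the ear-shaded ones, and it did not pass (log2 fold change 0.04, 95% interval -0.50 to 0.59, limma adjusted p = 0.887). AVESA.00010b.r2.5CG0884020 had 0.880, 0.979 and 0.658 FPKM in ear-shaded libraries, against 0.104, 0.158 and 0.118 FPKM in unshaded libraries. It was too low to test but its groups lay far apart. AVESA.00010b.r2.6CG1134160 reached at most 0.0968 FPKM in ear-shaded and 0.0419 FPKM in unshaded libraries.

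Of the 15 CSLF genes, which make mixed-linkage beta-glucan, 1 was abundant enough to test. AVESA.00010b.r2.7CG0667590 had 33.8, 36.8 and 19.3 FPKM in ear-shaded libraries, against 1.41, 2.36 and 2.90 FPKM in unshaded libraries. It was 29.9 ± 9.38 FPKM in ear-shaded and 2.22 ± 0.757 FPKM in unshaded grains (SD, n = 3 each), a ratio of 13.5. The log2 fold change was 3.24 ± 0.27 (SE; limma adjusted p = 6.62e-05), above that of every tested member, and 2.92 with median-of-ratios scaling. All CSLF genes summed to 38.3, 41.5 and 21.3 FPKM in ear-shaded libraries, against 2.31, 3.26 and 3.82 FPKM in unshaded libraries, so that this gene held most of the total. In 8 of the 15 the ear-shaded libraries lay wholly above the unshaded ones, as in 35.4% of all genes, tested or not. The CSLF list and its gene were chosen after the values had been read.

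CSLA genes, the branch whose enzymes make mannan and glucomannan, showed another pattern. Of 19 genes 12 were tested, of which 3 rose, 5 fell and 4 did not pass (limma). Among all tested genes 42.4% were higher and 21.5% lower. The 3 that rose averaged 0.705, 0.790 and 0.121 FPKM in unshaded libraries, so they passed the limit of 1 FPKM only through the ear-shaded ones. Of those that fell, AVESA.00010b.r2.5DG0994050 and AVESA.00010b.r2.7CG0659380 averaged 0.944 and 0.973 FPKM in ear-shaded libraries and passed it only through the unshaded ones. The copies on chromosome 6 were the most abundant, and AVESA.00010b.r2.6CG1136320 had 2.67, 1.89 and 2.74 FPKM in ear-shaded libraries, against 15.6, 13.0 and 11.1 FPKM in unshaded libraries. Its D and A copies by chromosome number, AVESA.00010b.r2.6DG1160300 and AVESA.00010b.r2.6AG1040000, fell by 1.84 and 2.16 on the log2 scale. The sum of the CSLA list was 27.3 ± 4.90 FPKM in ear-shaded and 49.3 ± 6.25 FPKM in unshaded grains (SD, n = 3 each). That drop lay in the C, D and A copies just named, which averaged 2.43, 2.83 and 1.59 FPKM in ear-shaded libraries. They averaged 13.3, 12.8 and 10.6 FPKM in unshaded libraries. The other genes of the list together summed higher in ear-shaded libraries. In 8 of the 19 genes the ear-shaded libraries lay wholly above the unshaded ones, as in 35.4% of all genes. The authors' adjusted p was under 0.05 for 7 higher and 6 lower, against 20.7% and 20.2% of all genes with one. A wider set added to the members the CSLF and CSLA genes and all genes with COG text for the glycosyltransferase 2 family. That text was taken with or without a KEGG entry. In this wider set 29 of 44 tested genes rose and 5 fell.

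Genes that supply or accompany cellulose synthesis were read from lists on the same descriptions. Their counts of limma calls stand beside 42.4% higher and 21.5% lower among all tested genes. All 9 tested UDP-glucose dehydrogenase genes, whose enzyme diverts UDP-glucose to other wall polysaccharides, rose, and the list summed to 191 ± 23.9 FPKM in ear-shaded and 64.6 ± 25.5 FPKM in unshaded grains (SD, n = 3 each). The most abundant, AVESA.00010b.r2.4AG0608050, had 41.0, 43.6 and 35.1 FPKM in ear-shaded libraries, against 9.46, 7.85 and 19.7 FPKM in unshaded libraries. The tested sucrose synthase genes, whose enzyme can supply UDP-glucose directly, did not rise with them. In 9 of the 26 sucrose synthase genes, 0 of them tested, the ear-shaded libraries lay wholly above the unshaded ones. This held in 35.4% of all genes, tested or not. Of 10 tested 0 rose and 7 fell (limma; 0 higher and 7 lower at an unadjusted p under 0.05, and 0 higher and 9 lower of the whole list in the authors' deposited table). With quantile normalization 1 was higher and 4 were lower, where 18202 of all 58283 tested genes were higher and 16681 lower. The sucrose synthase of the highest mean, AVESA.00010b.r2.6AG1056840, had 384, 375 and 489 FPKM in ear-shaded libraries, against 722, 697 and 583 FPKM in unshaded libraries (log2 fold change -0.68, limma adjusted p = 0.0418). Its call ended without any 1 library but ear-shaded replicate 3 (limma adjusted p from 0.0648 to 0.151), and with quantile normalization it passed as higher (0.47, limma adjusted p = 0.0292). The next by mean, AVESA.00010b.r2.4CG1266890, had 211, 208 and 264 FPKM in ear-shaded libraries, against 624, 593 and 508 FPKM in unshaded libraries. The UDP-glucose pyrophosphorylase genes divided, with 2 higher and 1 lower of 4. The count depended on the scaling, with 1 higher and 1 lower under median-of-ratios scaling, and 3 higher and 1 lower under quantile normalization. Neighbours by ID on 5C moved in opposite directions, AVESA.00010b.r2.5CG0875260 at 108 ± 8.99 FPKM in ear-shaded and 34.8 ± 5.24 FPKM in unshaded grains, and AVESA.00010b.r2.5CG0875270 at 21.3 ± 2.56 FPKM in ear-shaded and 44.8 ± 4.80 FPKM in unshaded grains (SD, n = 3 each).

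Lists for other wall polymers and for partners of cellulose synthase had more genes higher than lower. Callose synthases had 31 higher and 2 lower of 47 tested, xylan synthesis genes 33 and 3 of 54, and xyloglucan synthesis genes had 8 higher of 9. COBRA-like proteins, anchored proteins needed for cellulose deposition in Arabidopsis, had 9 higher and 2 lower of 16, and endoglucanases, which include the KORRIGAN type that acts beside CESA, 23 and 6 of 39. The endoglucanase list's summed level overlapped between the groups, at 369 ± 51.7 FPKM in ear-shaded and 391 ± 114 FPKM in unshaded grains (SD, n = 3 each). Of its genes with the highest means, AVESA.00010b.r2.1DG0144410 did not pass (log2 fold change -0.70, limma adjusted p = 0.105), although it passed as lower without unshaded replicate 1 (0.00781). AVESA.00010b.r2.7AG1192400, whose text also names an aminotransferase, fell by 1.00 on the log2 scale (limma adjusted p = 0.0191). Its groups overlapped, and the call ended without ear-shaded replicate 1 or 2 or unshaded replicate 2 or 3 (limma adjusted p from 0.0552 to 0.0662). The COBRA-like gene of the highest mean, AVESA.00010b.r2.5DG1003290, had 37.1, 35.9 and 24.7 FPKM in ear-shaded libraries, against 13.7, 14.8 and 14.8 FPKM in unshaded libraries. GDP-mannose pyrophosphorylases, which make the substrate of CSLA, had 2 higher and 4 lower of 10. Their median log2 fold change of -0.07 turned to 0.05 with equal library sums. The text licheninase, for enzymes that cut mixed-linkage beta-glucan, matched 0 genes. These counts stand beside the background of 42.4% higher and 21.5% lower. Genes of these lists may have passed the limit of 1 FPKM only through 1 group, and how many did was not counted. With a pseudocount of 0.1 the median log2 fold change of the xyloglucan list went from 0.91 to 1.42. That of the endoglucanases went from 0.82 to 1.26, and that of all tested genes from 0.26 to 0.35.

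**Figure D5:**
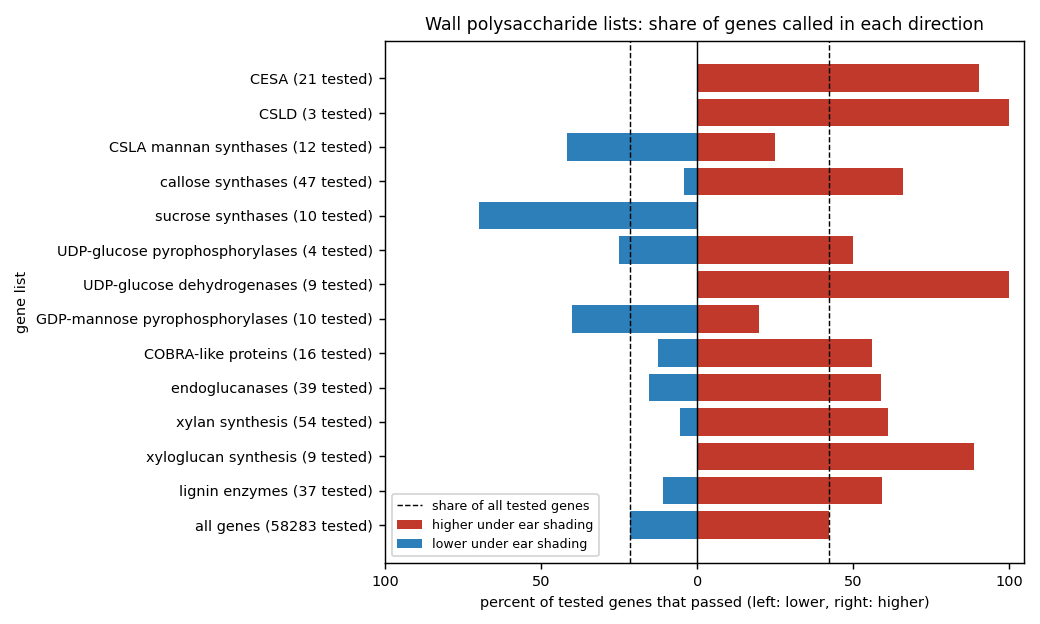
Share of tested genes that passed as higher (red, to the right) or lower (blue, to the left) under ear shading in limma for each list, in percent, with dashed lines at the shares of all tested genes (42.4% and 21.5%). The 19 of 21 CESA genes and 9 of 9 UDP-glucose dehydrogenases that rose reach far to the right, and 7 of 10 sucrose synthases lie to the left.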

How the data were processed

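The 6 libraries of peeled BY9 grains form 2 groups by their treatment label, 3 ear-shaded (4 days) and 3 unshaded. Per the labels' protocols the libraries were made from fragmented, randomly primed mRNA with an Illumina kit, yet the text also gives a PacBio instrument. The submitters' processing notes list HISAT2 and StringTie with neither role nor version. Genome build, annotation and strand setting: not given in the sources used here. The authors deposited FPKM per gene and library, gene length, their log2 fold change (positive where ear-shaded values are higher), their p-value and their adjusted p-value. The sources used here do not name the tool of their test.

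FPKM are not counts. When low values were searched for a common step worth 1 read, 17.8% to 28.1% of them came within 0.05 of whole multiples, so depth is unknown and no count model was used. Genes averaging 1 FPKM or more were tested on log2(FPKM + 1) with limma 3.58.1 in R 4.3.3, with a mean-variance trend, two-sided, and p-values were Benjamini-Hochberg adjusted over the 58283 tested genes. Fold changes on that scale understate those of low genes. Ratios in FPKM are ratios of group means.

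The members and lists were chosen with earlier results of these data known. Lists are text patterns on KEGG or COG descriptions. Histones, UDP-glucose and GDP-mannose pyrophosphorylases were narrowed to KEGG entries, and CSLF, CSLA and glycosyltransferase 2 lists and the GO sets added, after the file had been read. The naming rule took per KEGG class the 3 highest means, the 5 largest increases and decreases among called members of at least 2 FPKM, and per list the 2 highest means and the largest called changes. Other genes named were chosen after their values were seen, and a count of genes may include close copies. Alternatives changed the pseudocount, filter, scaling (3 ways), variance model and fold threshold, blocked on replicate number, left out each library, or merged ear-shaded replicates 1 and 2.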

Additional observations from a re-analysis of the deposited data

How the results depend on the processing

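No member was called lower in limma under any setting that kept the 45 members. Among members, 15 were called higher with median-of-ratios scaling, 18 with quantile normalization and 23 with equal library sums. Of all 58283 tested genes, 16333, 18202 and 27549 were higher under these scalings in that order, and 18139, 16681 and 10925 lower. Without each library in turn, 17 to 23 members were called higher. CESA calls then ranged from 15 to 20 and cellulose synthase-like calls from 2 to 3. With ear-shaded replicates 1 and 2 averaged, 17 members were higher. A fold threshold of 2 left 12 members, 12 of them CESA and 0 cellulose synthase-like, and 15563 genes in all (9475 higher, 6088 lower). Lowering the limit to 0.1 FPKM gave 56538 genes (38737 higher) and 6 cellulose synthase-like genes, and no filter gave 56196 (38730 higher) and 7, since more genes were tested. Among these, AVESA.00010b.r2.2CG0317020 averaged 0.0221 FPKM in unshaded libraries and passed the limit of 0.1 FPKM only through the ear-shaded ones. AVESA.00010b.r2.7DG1362070, called without a filter, was listed at 0 in all unshaded libraries. Neither call is used. Median-of-ratios scaling gave 16333 genes higher and 18139 lower, 0 cellulose synthase-like genes higher and a CSLD ratio of 1.21. The cause was not tested. The wider member set had 5 genes lower, all of them CSLA. Without each library in turn, 30665 to 38069 genes passed, 20290 to 25940 higher and 10375 to 12603 lower, and the ratio of sums was 2.06 to 2.63 for CESA, 1.49 to 1.67 for CSLD and 1.18 to 2.08 for COG-only members.

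Among the members, signs turned only in genes that did not pass. With median-of-ratios scaling the log2 fold change was -0.0138 in AVESA.00010b.r2.4AG0614190, -0.14 in AVESA.00010b.r2.7CG0713380 and -0.19 in AVESA.00010b.r2.5DG0960020, and with quantile normalization -0.0481 and -0.23 in the last 2. AVESA.00010b.r2.5DG0960020 was also at -0.17 without unshaded replicate 2, -0.03 without unshaded replicate 3 (-0.17 to 0.33 over the loss of each library) and -0.00868 without both replicates numbered 3.

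Replicate numbers did not pair the libraries, since same-numbered libraries correlated at -0.05, -0.05 and -0.15 in their deviations from group means. With the replicate number as a block, 33446 genes passed (22128 higher, 11318 lower), 18 members were higher (15 CESA and 3 cellulose synthase-like) and 0 lower, and 4 members' calls ended.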

Other observations

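Genes of lignin synthesis, the phenolic polymer of secondary walls, had more genes higher than lower in grains of shaded ears. Of 37 tested laccase, cinnamyl-alcohol dehydrogenase and cinnamoyl-CoA reductase genes, 22 were higher and 4 lower (limma), where 42.4% of all tested genes were higher and 21.5% lower. With median-of-ratios scaling 15 were higher and 5 lower, where 28.0% of all tested genes were higher and 31.1% lower. The gene of the highest mean, the cinnamyl-alcohol dehydrogenase AVESA.00010b.r2.7CG0678340, had 29.2, 29.4 and 37.2 FPKM in ear-shaded libraries, against 24.3, 12.7 and 49.3 FPKM in unshaded libraries. Its unshaded libraries spanned the ear-shaded ones and it did not pass. Of the 17 glycosyltransferase 2 genes without KEGG text, 3 were tested, and AVESA.00010b.r2.6AG1027600 was higher with 2.74 ± 0.249 FPKM in ear-shaded and 1.78 ± 0.194 FPKM in unshaded grains (SD, n = 3 each), a log2 fold change of 0.43 (limma adjusted p = 0.0123). With median-of-ratios scaling 0 of the 3 were higher and 1 was lower.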
